A study of Mus musculus with 6 samples.

Results

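The 3 Prl2+/+ libraries of a mouse fetal liver RNA sequencing study were described here on their own, as the level of every gene and its spread between libraries. They were chosen by their genotype label and are 3 of the 6 libraries in the study, which also holds 3 from embryos lacking Prl2 (Prl2-/-) and was made to ask how loss of this phosphatase alters FLT3-dependent transcription. No contrast with those libraries was made. Every embryo of the group was at E14.5, in midgestation, and carried an intact Prl2 gene, and the labels name no treatment, transgene, strain or sorting step. The source is given as fetal liver and the cell type as haematopoietic stem and progenitor cells. RNA was purified on columns, and 1 ng of it was turned into full-length cDNA with a template-switching kit before tagmentation, which does not mark the strand. Whether the libraries come from different embryos is not stated in the labels, so the spread between libraries may be partly technical.

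The 3 libraries held 26141378, 33613949 and 25965111 counts over 12579 genes. Levels are given as CPM, a gene's counts scaled to a library of 1000000 counts. Where genes are compared with each other, levels are CPM per kilobase of exon (CPKM), and ranks run from 1 for the highest mean CPKM to 12579. Errors are the SD over the 3 libraries (n = 3). The libraries stood apart in several respects, of which 2 are given first and the others with their gene lists below. Hepatoblast genes, those of the fetal liver's own epithelium, took 0.564, 0.108 and 0.0192% of counts in replicates 1, 2 and 3. Xist, the RNA that coats an inactive X chromosome, had 239, 266 and 0 counts, so replicate 3 had none where 3 counts would be 0.116 CPM. Their part in the other results was not tested, and values without replicate 1 are given where they move a result.

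In the midgestation mouse embryo the fetal liver is the main site of blood formation, where stem and progenitor cells expand among hepatoblasts and give rise to red cells, megakaryocytes, granulocytes, macrophages and early B cells. Myeloid progenitors make the proteins of their granules in sequence: primary (azurophil) granule enzymes such as myeloperoxidase come first, and secondary (specific) granule proteins such as lactoferrin later. KIT, the receptor for stem cell factor, and FLT3, a receptor of early and lymphoid-primed progenitors, are receptor tyrosine kinases of this compartment, and CD34 is a surface sialomucin carried by many of its cells.

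The label markers were measured in every library but at very different levels. Mpo, the gene of myeloperoxidase (chromosome 11, 87793784 to 87804412, plus strand), stood at 9878, 10734 and 12722 CPM in replicates 1 to 3. Cd34 (chromosome 1, 194938821 to 194961292, plus strand) stood at 172, 199 and 185 CPM, Kit (chromosome 5, 75574987 to 75656721, plus strand) at 189.6, 244 and 210.2 CPM and Flt3 (chromosome 5, 147330742 to 147400489, minus strand) at 18.9, 26.2 and 24.8 CPM. All 4 were lowest in replicate 1, and 3 of the 4 were highest in replicate 2. Per length of transcript, Mpo was rank 4 at 4364 ± 573 CPKM, Cd34 rank 1470 at 70.6 ± 5.14, Kit rank 2491 at 41.4 ± 5.33 and Flt3 rank 7331 at 6.37 ± 1.07. No neighbouring pair in this order overlapped between libraries. Kit exceeded Flt3 by 6.55 ± 0.553 times and Mpo exceeded Kit by 106 ± 16.9 times in CPKM (SD, n = 3), while the median of all genes was 9.88 CPKM. Flt3 thus lay under the median gene, although with 493, 881 and 643 counts it was well above counting noise.

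Genes used to mark haematopoietic stem cells were low. The 20 measured members had a median of 2.39 CPKM, against 9.88 for all genes. Among the 1000 highest of all 12579 genes were 0 of 20, which is near the share of all genes for a list of this size. Cd48, which is carried by progenitors and absent from the most primitive stem cells, led the list at 103, 99.99 and 121 CPM, followed by Ly6a, the gene of the SCA-1 antigen, at 87.5, 90.9 and 99.1 CPM. At the lower end, the stem cell transcription factor gene Mecom had 0.689, 0.506 and 0.655 CPM and rank 12479, Fgd5 0.880, 0.387 and 1.19 CPM and rank 12411, Tek, the gene of the angiopoietin receptor TIE2, 1.19, 0.892 and 1.81 CPM and rank 12034, and Procr, the gene of the surface protein EPCR, 1.38, 1.31 and 1.16 CPM and rank 10858. Meis1 and Hlf, stem and progenitor transcription factor genes, stood between these ends at 18.2, 22.3 and 19.3 and at 5.51, 4.43 and 6.74 CPM. The member with the largest difference between libraries was Cdkn1c, the gene of the cell cycle inhibitor p57, at 10.1, 2.77 and 1.35 CPM, highest in replicate 1 and lowest in replicate 3, as the hepatoblast genes were. In bulk RNA, fewer cells of a type and less RNA per cell cannot be told apart.

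**Figure D1:**
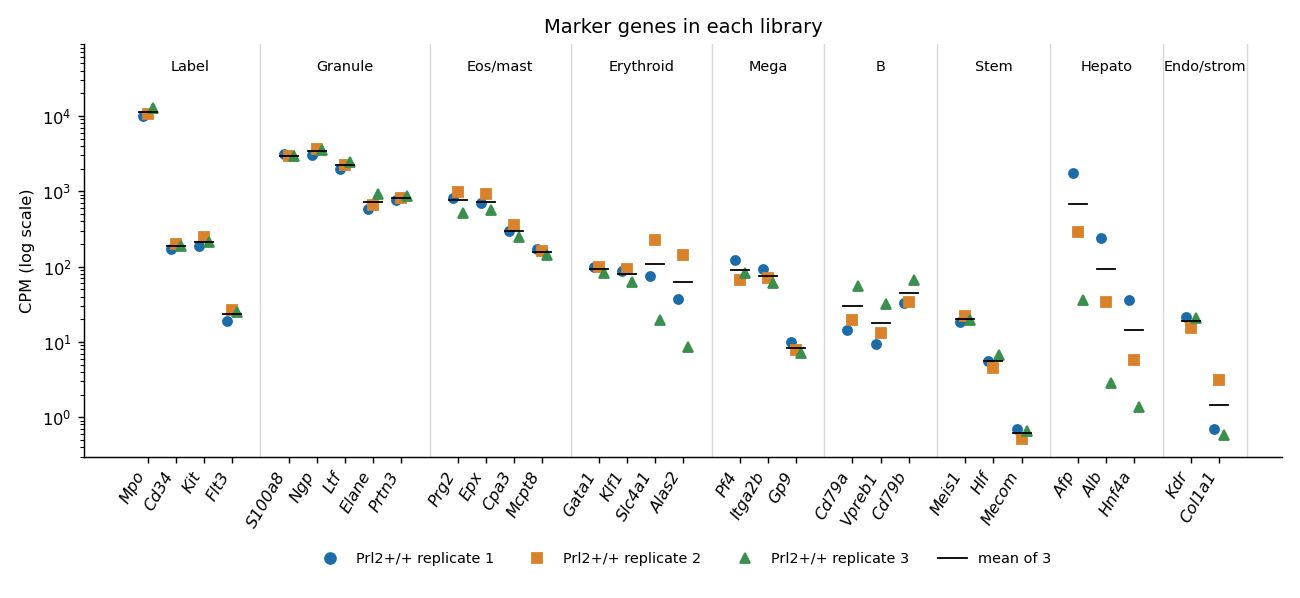
Level of marker genes in each Prl2+/+ library in CPM on a log axis, grouped as label markers, granule, eosinophil and mast cell, erythroid, megakaryocyte, B lineage, stem cell, hepatoblast, and endothelial or stromal genes. Points are the 3 libraries and short lines their mean, and the points of Afp and Alb lie far apart where those of S100a8 and Mpo lie close together.

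Transcripts of neutrophil granule and cytosolic defence proteins were among the most abundant. S100a8 (chromosome 3, 90669071 to 90670034, plus strand) and S100a9 (chromosome 3, 90692630 to 90695721, minus strand), which encode the calcium-binding subunits of calprotectin, stood at 3078, 2938 and 2896 CPM and at 2359, 2398 and 2349.7 CPM. They held ranks 1 and 3 at 7578 ± 244 and 4520.4 ± 48.9 CPKM, and the libraries differed by 1.06-fold and 1.02-fold at most. S100a8 exceeded S100a9 by 1.68 ± 0.0591 times in CPKM. Between them came Ftl1, the ferritin light chain gene, at 6161, 7332 and 5357 CPM, which was highest in replicate 2. Ranks 5 to 10 were held by Actb, Lyz2 (lysozyme, 3045, 3925 and 3477 CPM), Tmsb4x (the actin-binding thymosin), Ngp (a neutrophil granule protein, 3064, 3583 and 3485 CPM), Ppia (cyclophilin A) and Gpx1 (a glutathione peroxidase). Ranks 11 to 20 held the stefin A genes BC100530 and Stfa1, which encode inhibitors of cysteine proteases, with Gapdh, Pfn1, Ldha, Hspa8, Eif5a, Atp5b, Arhgdib and Fth1. By CPM alone, with no length scaling, the 20 highest genes also held Lars2 (a mitochondrial leucyl-tRNA synthetase, 4514, 4704 and 4329 CPM), the endoplasmic reticulum chaperone genes Hspa5 and Calr, and Pkm, Eif4g2, Hsp90ab1 and Ltf. Counts of Ftl1, Actb, Gapdh, Ppia, Tmsb4x, Eef1a1, Hmgn2, the stefin A genes, the ribosomal protein genes, Igll1, Vpreb1, Vpreb2, Csf2rb, Csf2rb2, Ear1, Ear2, Ifit3 and Serpina1a are uncertain, because near-identical copies can share their reads.

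Counts were spread over many genes rather than held by a few. The 10 genes with the most counts took 4.57%, 4.95% and 4.78% of counts in replicates 1 to 3, the top 100 took 16.6%, 17.1% and 16.8%, and the top 1000 took 49.5%, 50.3% and 50.2%. In all 3 libraries 11215 genes reached 1 CPM, 8439 reached 10 CPM, 2385 reached 100 CPM and 64 reached 1000 CPM. The order of the most abundant genes was shared: 19 of the top 20, 87 of the top 100 and 932 of the top 1000 genes by CPKM were in the top of every library.

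**Figure D2:**
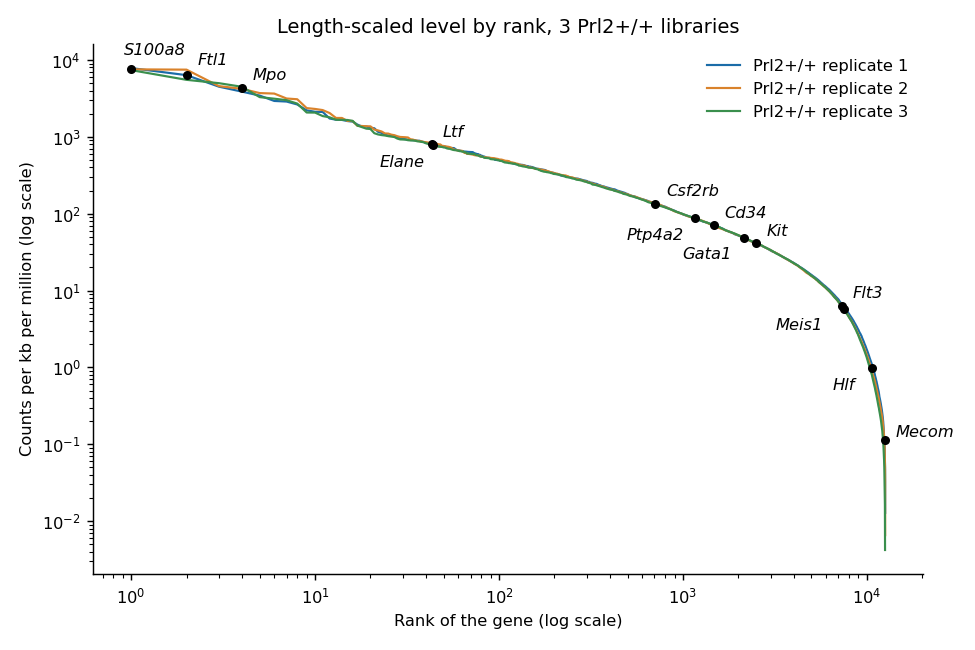
CPKM of every gene against its rank within each Prl2+/+ library, both axes on a log scale, with 14 genes marked at their mean level. The 3 curves lie on each other, S100a8 is rank 1, Kit is rank 2491 and Mecom is rank 12479.

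Genes of primary granules were high as a group. All 15 members were measured, 14 of 15 were among the 1000 highest genes, and their median was 586 CPKM. Behind Mpo and Lyz2 came Calr, at 2514, 2418 and 2484 CPM. It encodes the endoplasmic reticulum chaperone calreticulin, so the list and its sum are not limited to granule proteins. The serine protease genes followed, with Prtn3 (proteinase 3) at 767, 818 and 872 CPM, Elane (neutrophil elastase) at 582, 664 and 915 CPM and Ctsg (cathepsin G) at 541, 522 and 700.1 CPM. Elane was highest in replicate 3 and differed 1.57-fold between libraries, more than any other member, and Mpo exceeded it by 5.66 ± 0.572 times in CPKM. Ms4a3, a membrane protein gene of granulocyte and monocyte progenitors, stood at 616, 622 and 658 CPM, and Srgn, the proteoglycan serglycin that packs granule proteases, at 567, 472 and 565 CPM. The lowest member was Prss57, a granule protease gene, at 102, 107 and 99.4 CPM. The list took 2.06, 2.23 and 2.45% of counts, highest in replicate 3, and its median CV was 6.41% against 7.13% for all genes with a mean of at least 5 CPM.

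Genes of secondary and later granules were also prominent. Of 14 measured members 9 were among the 1000 highest genes, and the list's median was 198 CPKM. Camp, the cathelicidin gene, stood at 590.3, 629.9 and 542 CPM, Ltf (lactoferrin) at 1969, 2235 and 2461 CPM and Lcn2 (the siderophore-binding lipocalin) at 509, 543 and 564 CPM. These 3 differed between libraries by 1.16-fold, 1.25-fold and 1.11-fold. Other members, chosen here after their values were seen, differed more. Mmp8 (neutrophil collagenase) stood at 437, 371 and 752 CPM, Mmp9 (gelatinase B) at 115, 63.7 and 298 CPM and Chil3 (a chitinase-like protein) at 52.9, 99.8 and 283 CPM. Retnlg, a resistin-like gene of mature neutrophils and the lowest member, stood at 11.2, 3.99 and 42.2 CPM. All 4 were highest in replicate 3, and 3 of them had a CV over 50%. Cd177, a surface glycoprotein gene of neutrophils, stood at 300.1, 291 and 322 CPM and Itgam, the gene of the integrin CD11b, at 341, 384 and 393 CPM, so not all neutrophil genes of the list shared that difference. Replicate 3 was the highest library for 9 of the 14. Summed over the list the 3 libraries were close, at 12950.5, 13652 and 14515 CPM. The summed level of the secondary list was 0.629, 0.613 and 0.592 times that of the primary list in replicates 1 to 3. The secondary list includes the cytosolic S100a8 and S100a9, with means of 2971 and 2369 CPM of a mean sum of 13706 CPM. Mpo alone had a mean of 11111 CPM of 22458 CPM for the primary list, which also holds Calr. The ratio is thus one of these lists and not of granule transcripts alone.

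The promoters of these genes are shown because granule genes are among the highest in every library. The 200 bases before the start sites of S100a8 (chr3:90668871-90669070, plus strand), Ngp (chr9:110419608-110419807, plus strand) and Elane (chr10:79886112-79886311, plus strand) were taken from RefSeq on GRCm38.p6. Capitals mark matches, on either strand, to GAGGAAGT, a form of the site of the myeloid factor encoded by Spi1, to TTGCNNAA, a form of the C/EBP site, and to TATAAA.
S100a8: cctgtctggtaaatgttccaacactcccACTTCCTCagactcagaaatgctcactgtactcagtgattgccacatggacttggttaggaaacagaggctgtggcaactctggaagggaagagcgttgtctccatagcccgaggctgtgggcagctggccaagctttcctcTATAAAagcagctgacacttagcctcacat
Ngp: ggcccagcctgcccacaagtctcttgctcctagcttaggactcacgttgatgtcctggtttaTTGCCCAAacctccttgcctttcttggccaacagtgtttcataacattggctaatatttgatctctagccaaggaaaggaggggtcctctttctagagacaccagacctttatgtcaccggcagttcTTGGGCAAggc
Elane: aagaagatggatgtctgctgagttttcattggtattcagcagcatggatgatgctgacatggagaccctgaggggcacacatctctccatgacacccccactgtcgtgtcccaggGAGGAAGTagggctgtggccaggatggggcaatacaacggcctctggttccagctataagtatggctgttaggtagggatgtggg
GAGGAAGT was present in 2 of 14 windows of primary granule genes and 1 of 12 of secondary granule genes, against 2.06% of 32851 windows of 27025 genes. TTGCNNAA was present in 3 of 14 and 3 of 12, against 7.47% of all windows, and TATAAA in 1 of 14 and 3 of 12, against 9.96%. In all, 15 motifs were searched in the windows of 11 lists, and those shown were chosen after their counts were seen. A match describes letters in the window and not binding.

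Granule genes of eosinophils, basophils and mast cells were also abundant. Prg2 (eosinophil major basic protein) was rank 34 at 801, 984 and 507 CPM, and Epx (eosinophil peroxidase) was rank 289 at 699.8, 908 and 561 CPM. Hdc, the enzyme that makes histamine, stood at 576, 713 and 498 CPM. These 3 were highest in replicate 2 and lowest in replicate 3, and 10 of the 13 members were highest in replicate 2. Mcpt8, a basophil protease gene, stood at 171, 163 and 141 CPM, and Cpa3, the carboxypeptidase gene of mast cells and their progenitors, at 297, 357 and 246 CPM. The connective tissue mast cell protease gene Cma1 was at 26.5, 42.8 and 10.7 CPM and Tpsb2, a tryptase gene, at 0.842, 4.79 and 1.04 CPM. Fcer1a, the alpha chain of the high-affinity IgE receptor, stood at 0.918, 1.04 and 0.809 CPM. The lowest member, the tryptase gene Tpsab1, also had the largest fold between libraries, at 0.612, 1.43 and 0.0770 CPM. Summed over the list the libraries stood at 2754, 3321 and 2131 CPM, a 1.56-fold range.

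A chain shared by receptors for myeloid cytokines was the highest of the cytokine receptor genes, and Flt3 was among the lowest. Csf2rb, the beta chain shared by the receptors for GM-CSF, interleukin-3 and interleukin-5, led the 23 cytokine receptor genes at 563, 764 and 601 CPM and 135 ± 22.4 CPKM. Il2rg, the common gamma chain gene, was next at 117 ± 5.57 CPKM and Ifngr1, an interferon-gamma receptor chain, at 105 ± 4.87 CPKM. Below them came Csf1r, the M-CSF receptor gene, at 53.4 ± 8.43, and Csf2ra, the alpha chain for GM-CSF, at 48.4 ± 6.28 CPKM. Kit was seventh and Csf3r, the G-CSF receptor gene, eighth, at 41.4 ± 5.33 and 37.1 ± 8.46 CPKM. Csf2rb exceeded Kit by 3.25 ± 0.146 times and Flt3 by 21.3 ± 2.34 times in CPKM. Flt3, Il3ra (the alpha chain for interleukin-3), Il7r, Igf1r and Il1r1 were the 5 lowest members, at 6.37, 5.22, 4.95, 4.04 and 1.32 CPKM. Il7r, the interleukin-7 receptor gene of lymphoid progenitors, was highest in replicate 3, at 14.498, 11.0 and 22.1 CPM. Neighbours in the order could mostly not be separated: 18 of 22 adjacent pairs overlapped between libraries. None of the 23 had a CV over 50%. Of all genes with a mean of at least 5 CPM 2.89% did, so none is near that share for a list of this size. The median CV of the 23 was above the 7.13% of those genes.

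Genes that carry the signal of these receptors were steady. The 24 genes of FLT3 and KIT signalling had a median of 30.8 CPKM and a median CV of 5.32%. Akt1, a kinase of the PI3K pathway, stood at 556, 603 and 589.9 CPM and Ptpn6, the phosphatase SHP-1, at 479, 561 and 499 CPM. The adaptor gene Grb2 was at 184, 193 and 184 CPM. Cbl, whose ubiquitin ligase limits both receptors, was at 74.1, 73.4 and 80.4 CPM, and its relative Cblb was the lowest member at 16.9, 14.4 and 17.9 CPM. Stat5b exceeded Stat5a by 1.54 ± 0.0437 times in CPKM, and Socs2, a feedback inhibitor, showed the largest fold between libraries at 1.29.

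Ptp4a2, which encodes PRL2, was the highest of its family. It stood at 309, 295 and 313 CPM (chromosome 4, 129820479 to 129850003, plus strand) with 87.2 ± 2.80 CPKM and rank 1163. Ptp4a3 (PRL3) stood at 89.4, 106 and 108 CPM and Ptp4a1 (PRL1) at 22.8, 15.6 and 17.4 CPM. In CPKM Ptp4a2 exceeded Ptp4a3 by 4.01 ± 0.480 times and Ptp4a1 by 19.8 ± 3.34 times, and in each library the order was the same. Of the CNNM membrane proteins, magnesium transport regulators that bind PRL phosphatases, Cnnm3 was at 36.3, 38.9 and 38.1 CPM, Cnnm4 at 20.2, 23.4 and 24.6 CPM and Cnnm2, the lowest member of the list, at 8.53, 8.51 and 9.09 CPM. Trpm7, a channel that conducts magnesium, was at 75.1, 72.2 and 88.2 CPM. The differences between libraries were small for Ptp4a2 (CV 3.21%) and larger for Ptp4a1 (CV 20.1%), which was highest in replicate 1.

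Genes of myeloid factors led the haematopoietic transcription factors, and the Hoxa genes and Mecom were low. Spi1, which encodes the myeloid and B cell factor PU.1, and Cebpb, of the C/EBP family, led the 40 genes at 262 ± 20.3 and 258 ± 36 CPKM. Myc stood at 122 ± 8.29, Nfe2, an erythroid and megakaryocyte factor gene, at 87.9 ± 3.90 and Gata2, of stem, progenitor and mast cells, at 77.2 ± 6.52 CPKM. Gata1, the erythroid and megakaryocyte factor gene, stood at 48.8 ± 5.22, level with Cebpe, the factor gene of secondary granule formation, at 48.4 ± 4.49 CPKM. Spi1 exceeded Gata1 by 5.41 ± 0.604 times in CPKM, with a ratio over 4.79 in each library. Cebpa, the factor gene of granulocyte commitment, was lower, at 28.6, 27.9 and 29.5 CPM, and Spi1 exceeded it by 24.2 ± 2.37 times in CPKM. Runx1 stood at 108, 112 and 116 CPM and Myb at 162, 159 and 199 CPM. The Hoxa genes were low: Hoxa9 stood at 6.20, 6.40 and 7.66 CPM, Hoxa7 at 2.87, 4.05 and 4.39 CPM, Hoxa5 at 0.650, 0.446 and 0.539 CPM and Hoxa10 at 0.536, 0.892 and 0.732 CPM. Mecom was the lowest of the 40. Replicate 1 was the lowest library for 25 of the 40 genes, 28 of 39 adjacent pairs overlapped, and the median CV was 10.9%. The largest CV of those over 5 CPM belonged to Ebf1, the B lineage factor gene, at 6.31, 8.45 and 24.5 CPM.

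Fetal-stage regulators were present. Igf2bp3, an RNA-binding protein gene of the fetal programme, stood at 139, 137 and 146 CPM and Lin28b, which blocks the maturation of let-7 microRNAs, at 43.2, 38.9 and 42.0 CPM. Arid3a was at 136, 148 and 141 CPM, Lin28a at 13.7, 13.8 and 14.1 CPM and Hmga2 at 25.0, 19 and 20.5 CPM. These 5 had CVs of 3.53%, 5.38%, 4.04%, 1.34% and 14.6%. The imprinted genes of the list behaved otherwise. Peg3 stood at 134, 24.4 and 3.58 CPM, H19 at 17.9, 3.48 and 0.886 CPM and Igf2, the lowest member, at 11.4, 1.49 and 0.0770 CPM, each highest in replicate 1 and lowest in replicate 3, as the hepatoblast genes were. Igf2bp1 was at 49.7, 54.1 and 13.1 CPM, low in replicate 3.

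Proliferation genes were high and nearly equal in all 3 libraries. The 22 DNA replication genes had a median of 94.0 CPKM and a median CV of 4.49%, and 11 of 22 were among the 1000 highest genes. Their sums were 8013, 8436 and 8571 CPM, a 1.07-fold range. Within it 17 of the 22 were highest in replicate 3, against 36.4% of all genes with a mean of at least 5 CPM, and 18 were lowest in replicate 1. Rrm2, a ribonucleotide reductase subunit, stood at 1052, 1105 and 1111 CPM, Mcm6 and Mcm3 of the replicative helicase at 831, 836 and 916 and 708, 777 and 779.6 CPM, and Pole, a DNA polymerase subunit and the lowest member, at 70.3, 74.6 and 79.5 CPM. The 22 mitotic genes had a median of 66.2 CPKM, with Ube2c, a ubiquitin-conjugating enzyme of mitotic exit, at 255, 252 and 251 CPM. Ccnb1 (cyclin B1) stood at 499, 473 and 487 CPM, Cdc20 at 322, 332 and 359 CPM, Mki67, the gene of the Ki-67 antigen, at 124, 135 and 122 CPM and Cenpf, the lowest member, at 41.9, 41.4 and 42.0 CPM. Summed over the mitotic list the libraries stood at 4972, 4965 and 5085 CPM, a 1.02-fold range and the narrowest of the 35 lists. Of the cell cycle inhibitors, Cdkn2d stood at 68.1, 79.8 and 67.6 CPM, Cdkn1a (p21) at 118, 126 and 93.9 CPM and Cdkn1b (p27), the lowest, at 1.61, 1.70 and 1.5 CPM.

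The promoters of mitotic genes are shown for the CCAAT box, the site of the factor NF-Y. The windows are those of Ccnb2 (chr9:70421555-70421754, minus strand), the cyclin B2 gene, at 205, 216 and 192 CPM, and of Cdc20 (chr4:118437344-118437543, minus strand), which activates the anaphase-promoting complex. Capitals mark CCAAT on either strand.
Ccnb2: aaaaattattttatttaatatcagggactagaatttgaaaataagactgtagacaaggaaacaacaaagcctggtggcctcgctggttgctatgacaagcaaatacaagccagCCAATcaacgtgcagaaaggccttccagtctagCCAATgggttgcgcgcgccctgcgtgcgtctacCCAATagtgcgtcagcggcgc
Cdc20: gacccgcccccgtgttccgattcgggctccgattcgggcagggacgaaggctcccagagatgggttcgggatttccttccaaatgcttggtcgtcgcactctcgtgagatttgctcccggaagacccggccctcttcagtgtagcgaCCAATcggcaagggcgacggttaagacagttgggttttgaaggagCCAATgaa
CCAAT was present in 16 of 18 windows of mitotic genes (88.9%), 13 of 20 of DNA replication genes (65%) and 10 of 13 of sterol synthesis genes (76.9%), against 29.4% of all windows. It was also present in 4 of 5 windows of MHC class II genes (80%). The shares in the other 7 lists lay between 18.2 and 42.9%.

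Genes of growth and metabolism formed the steady background of the 3 libraries. The 80 cytosolic ribosomal protein genes had a median of 311 CPKM and 70 of 80 were among the 1000 highest, led by Rplp0 at 1415, 1452 and 1183 CPM. Replicate 3 was the lowest library for 59 of the 80, but the summed level differed only 1.06-fold. Rpl39l, a paralogue best known from testis, was the lowest at 0.727, 0.535 and 1.31 CPM. The 80 nuclear genes of the respiratory chain had a median of 163 CPKM, led by Atp5b at 2565, 2602 and 2515 CPM, with a 1.04-fold range of the sum. Glycolysis genes had a median of 177 CPKM, and Ldha (lactate dehydrogenase A) stood at 3207, 3103 and 3224 CPM, Gapdh at 2592, 2634 and 2687 CPM and Pkm (pyruvate kinase) at 2420.3, 2592 and 2391 CPM. Eno1, the lowest of the 13, stood at 13.9, 13.1 and 14.2 CPM, while Eno1b, a near-identical copy, had 15.3, 14.0 and 69.9 CPM, so reads of the 2 genes may have been shared. Ribosome biogenesis and MYC target genes, led by Npm1 (nucleophosmin, 955, 859.5 and 1022 CPM) and Srm (spermidine synthase, 528, 561 and 595 CPM), were highest in replicate 3 for 17 of 20 members, with a 1.09-fold range of the sum. Polr1a, a subunit of RNA polymerase I, was the lowest at 84.0, 90.8 and 92.9 CPM. Translation factor genes were led by Eif5a at 2749.6, 2801 and 2828 CPM, and their sums differed 1.03-fold. Sterol synthesis genes, led by Fdps at 419, 462 and 403 CPM, had a median of 30.8 CPKM and a 1.06-fold range. Of the chromatin genes, Hmgn2 stood at 1282, 1239 and 1118 CPM, H2afz at 951, 1049 and 988 CPM and Ptma at 766, 785 and 835 CPM, and Kmt2a was the lowest at 8.72, 7.32 and 9.47 CPM.

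Over the 9892 genes with a mean of at least 5 CPM, the median CV between libraries was 7.13%, against 2.77% for counting error alone. Most genes were close: 68.3% had a CV of at most 10%, and the 10th and 90th percentiles were 2.60% and 20.9%. The common biological coefficient of variation from edgeR was 0.204 and the median for single genes 0.126. Across these genes, which are not independent, Pearson r of log2 CPM was 0.976 between replicates 1 and 2, 0.949 between 1 and 3 and 0.979 between 2 and 3. The lowest CVs at a mean of at least 100 CPM were those of Psmd6, a proteasome subunit (236, 235 and 235 CPM), Srp72 of the signal recognition particle (125, 126 and 126 CPM) and Pdia6, a disulphide isomerase (845, 848 and 846 CPM). Ywhag, Mcl1, Ssr2, Cks1b, Rps3a1 and Nisch were also among the 10 lowest, with CVs of at most 0.273%. Each of the 10 had a CV under that of counting error alone, as Psmd6 with 0.139% against 1.23%. Whether they are steadier than other genes is therefore not resolved.

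A small set of genes varied far more. There were 286 genes with a CV over 50%, or 2.89% of the 9892, and 117 with a CV over 100%. Replicate 1 was the highest library for 218 of the 286 and replicate 3 the lowest for 236, and both held for 209 of them. Over all 9892 genes the highest library was replicate 1 for 32.4%, replicate 2 for 31.2% and replicate 3 for 36.4%. The lowest library was not counted over all genes, so counts of genes lowest in a library, here and in the lists, have no such share beside them. Without replicate 1 the count of genes over 50% was 144. The 15 genes with the largest CV included Pzp, Fabp1, Abat, Itih4, Itih3, Cp, Fga, Plat, Gc, Habp2, Hpx, Tm4sf4, Kng1 and Ahsg. Most of these encode proteins that the liver secretes into plasma. Pzp, an alpha-2-macroglobulin family protease inhibitor, stood at 21.6, 1.13 and 0.270 CPM, Fabp1, the liver fatty acid-binding protein, at 13.9, 1.01 and 0.347 CPM and Hpx, the haem-binding hemopexin, at 87.4, 10.4 and 1.69 CPM. All 15 were highest in replicate 1 and lowest in replicate 3.

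**Figure D3:**
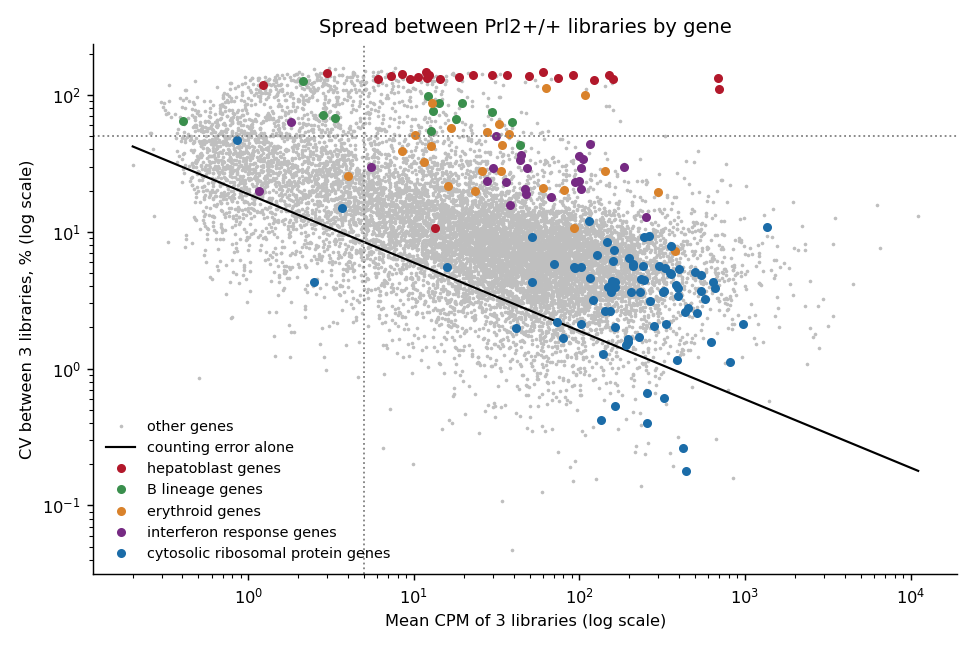
CV between the 3 Prl2+/+ libraries against mean CPM for every gene, both axes on a log scale, with the CV that counting alone would give as a line. Dotted lines mark 5 CPM and a CV of 50%, and 24 of the 25 hepatoblast genes lie over the latter, while all 80 ribosomal protein genes lie under it.

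Hepatoblast genes made up the widest difference between libraries. The 25 measured members summed to 5644, 1079.7 and 192 CPM in replicates 1 to 3, a 29.5-fold range, and 25 of 25 were highest in replicate 1 and lowest in replicate 3. Afp, the alpha-fetoprotein gene (chromosome 5, 90490714 to 90508907, plus strand), stood at 1733, 290.1 and 35.9 CPM, and its neighbour on the chromosome Alb, the albumin gene (chromosome 5, 90460889 to 90476603, plus strand), at 239.6, 33.5 and 2.81 CPM. Trf (transferrin) stood at 1552, 431 and 92.0 CPM, Fgb, the fibrinogen beta chain gene, at 397, 47.4 and 10.3 CPM and the epithelial keratin gene Krt8 at 399.6, 67.3 and 10.5 CPM. Hnf4a, the hepatocyte nuclear factor gene, stood at 36.3, 5.71 and 1.39 CPM and Apoa1, the main apolipoprotein gene of high-density lipoprotein, at 59.4, 7.85 and 0.847 CPM. The lowest member, Serpina1a of the alpha-1 antitrypsin family, had 207, 34 and 0 counts, so at 0 in replicate 3. Dlk1 was the exception to the size of the difference, at 14.9, 13.0 and 12.1 CPM. Afp exceeded Alb by 9.35 ± 2.81 times in CPKM. The list held 0.231% ± 0.293 (SD, n = 3) of counts, and 0.0636% without replicate 1.

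Promoters of the neighbouring genes Alb (chr5:90460670-90460869, plus strand) and Afp (chr5:90490514-90490713, plus strand) are shown because they differ 85.2-fold and 48.3-fold between libraries. Capitals mark GTTAAT, part of the site of HNF1, TTGCNNAA and TATAAA, on either strand; motifs were matched one by one and may share bases.
Alb: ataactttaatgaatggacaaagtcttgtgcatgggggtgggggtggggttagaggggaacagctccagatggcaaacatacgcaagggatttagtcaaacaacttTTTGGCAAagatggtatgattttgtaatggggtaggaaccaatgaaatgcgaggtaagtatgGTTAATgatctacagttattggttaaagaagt
Afp: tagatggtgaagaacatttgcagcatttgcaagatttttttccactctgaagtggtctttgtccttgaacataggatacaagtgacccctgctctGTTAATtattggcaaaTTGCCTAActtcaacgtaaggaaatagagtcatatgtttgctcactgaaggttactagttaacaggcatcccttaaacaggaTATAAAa
GTTAAT was present in 8 of 24 windows of hepatoblast genes (33.3%), against 5.06% of all windows, and in 0 of 14 and 0 of 12 windows of primary and secondary granule genes. TTGCNNAA was present in 10 of 24 (41.7%), against 7.47%.

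Erythroid genes were highest in replicate 2. Of 23 measured members 20 were highest there and 21 were lowest in replicate 3, and the sums were 1526, 1966 and 1091 CPM. Of the genes named here, chosen after their values were seen, Gata1 stood at 97.1, 99.96 and 81.5 CPM, Klf1, the erythroid Krüppel-like factor gene, at 86.0, 92.6 and 61.9 CPM and Tfrc, the transferrin receptor gene, at 407, 368 and 356 CPM. They differed between libraries by 1.23-fold, 1.5-fold and 1.15-fold. Car2, a carbonic anhydrase gene and the highest member, stood at 303, 352 and 237 CPM. Differences were larger for Alas2, Slc4a1 and Ank1. Alas2, the erythroid enzyme of the first step of haem synthesis, stood at 37, 144 and 8.43 CPM and Slc4a1, the band 3 anion exchanger, at 75.5, 228 and 19.8 CPM. Ank1, the ankyrin of the red cell membrane and the lowest member, stood at 11.2, 14.6 and 4.47 CPM. The embryonic globin gene Hbb-bh1 had 14, 187 and 5 counts, and the other globin genes were not analysed here. All 9 haem synthesis genes were highest in replicate 2. Of these Alas1, the housekeeping form of the first enzyme, stood at 467, 503 and 471 CPM, a 1.08-fold range, and Alas2 differed 17.0-fold.

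Megakaryocyte and platelet genes were highest in replicate 1 for 16 of 18 members. Cd9, a tetraspanin gene, stood at 234, 208 and 145 CPM, Pf4 (platelet factor 4) at 123, 67.2 and 83 CPM and Thbs1 (thrombospondin 1) at 718, 528 and 789 CPM. The integrin gene Itga2b stood at 93.2, 70.9 and 60.9 CPM. Clec1b, the gene of the platelet receptor CLEC-2, had the widest range, at 7.73, 4.02 and 2.43 CPM, and Selp, the P-selectin gene, was the lowest at 4.13, 2.80 and 2.43 CPM. Summed levels were 1686, 1297 and 1438 CPM.

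B lineage genes were highest in replicate 3 for 13 of 13 members. They summed to 118, 139 and 376 CPM, a 3.18-fold range, and 12 of 13 had a CV over 50%. Igll1 and Vpreb1, which encode the surrogate light chain of the pre-B cell receptor, stood at 22.0, 27.2 and 67.4 CPM and at 9.49, 12.9 and 31.8 CPM. Cd79a, a signalling chain of that receptor, stood at 14.3, 19.5 and 54.8 CPM and Cd79b, its partner chain, at 32.6, 33.7 and 65.8 CPM. The widest range was that of Fcrla, at 0.383, 0.803 and 5.28 CPM, and Pax5, the B lineage factor gene, was the lowest at 0.344, 0.178 and 0.693 CPM, with 9, 6 and 18 counts. The lymphoid-primed progenitor list, which shares Flt3 and Il7r with other lists, was closer, at 556, 583 and 706 CPM. Its highest member Cd52 stood at 118, 134 and 131 CPM, Rag2, of the recombinase, at 3.63, 2.41 and 8.20 CPM and Dntt, the terminal transferase gene, at 0.421, 0.327 and 0.886 CPM. Libraries thus differed more in B lineage genes than in the progenitor list.

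MHC class II genes followed a different order. All 7 were highest in replicate 2 and lowest in replicate 1, with sums of 632, 1175 and 827 CPM. Cd74, the invariant chain gene, stood at 351, 661 and 455 CPM, H2-Ab1 at 129, 244 and 181 CPM and Ciita, their transactivator and the lowest member, at 7.19, 10.7 and 8.86 CPM. Macrophage genes had a median of 6.29 CPKM and sums of 835, 862 and 721 CPM. Single members differed more than the sums, with a median CV of 33.4% and 3 of 16 over 50%, against 30.6% and 0 of 7 for MHC class II genes. Of the 16 macrophage genes, 9 were highest in replicate 1 and 7 in replicate 2, and 11 were lowest in replicate 3. Hepatoblast genes were also lowest in replicate 3, but the macrophage sum was highest in replicate 2. The part of hepatoblasts in this was not tested. Cd68, a lysosomal glycoprotein gene of macrophages, stood at 128, 153 and 115 CPM, Adgre1, the gene of the F4/80 antigen, at 136, 166 and 129.5 CPM and C1qa, of complement C1q, at 4.90, 2.17 and 1.39 CPM. Cd5l, a secreted protein gene of tissue macrophages, stood at 2.91, 0.149 and 0.385 CPM. T and innate lymphoid genes had a median of 1.44 CPKM. Gzmb (granzyme B) was their exception at 112, 113 and 71.9 CPM, and Cd3g and Zap70, of the T cell receptor complex and its signalling, were at 0.421, 0.892 and 0.193 and 0.268, 0.506 and 0.462 CPM. Endothelial genes summed to 117, 117 and 124 CPM, of which Pecam1, a gene that blood cells also use, made up 67.1, 75.4 and 72.7 CPM, and Kdr, the VEGF receptor gene, stood at 21.3, 15.3 and 20.8 CPM. Stromal genes summed to 26.3, 33.9 and 14.9 CPM, and Col1a1, a collagen gene, stood at 0.689, 3.12 and 0.578 CPM. The defining genes Cdh5, Stab2, Col3a1, Dcn, Timd4 and Cd3e were not analysed here.

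**Figure D4:**
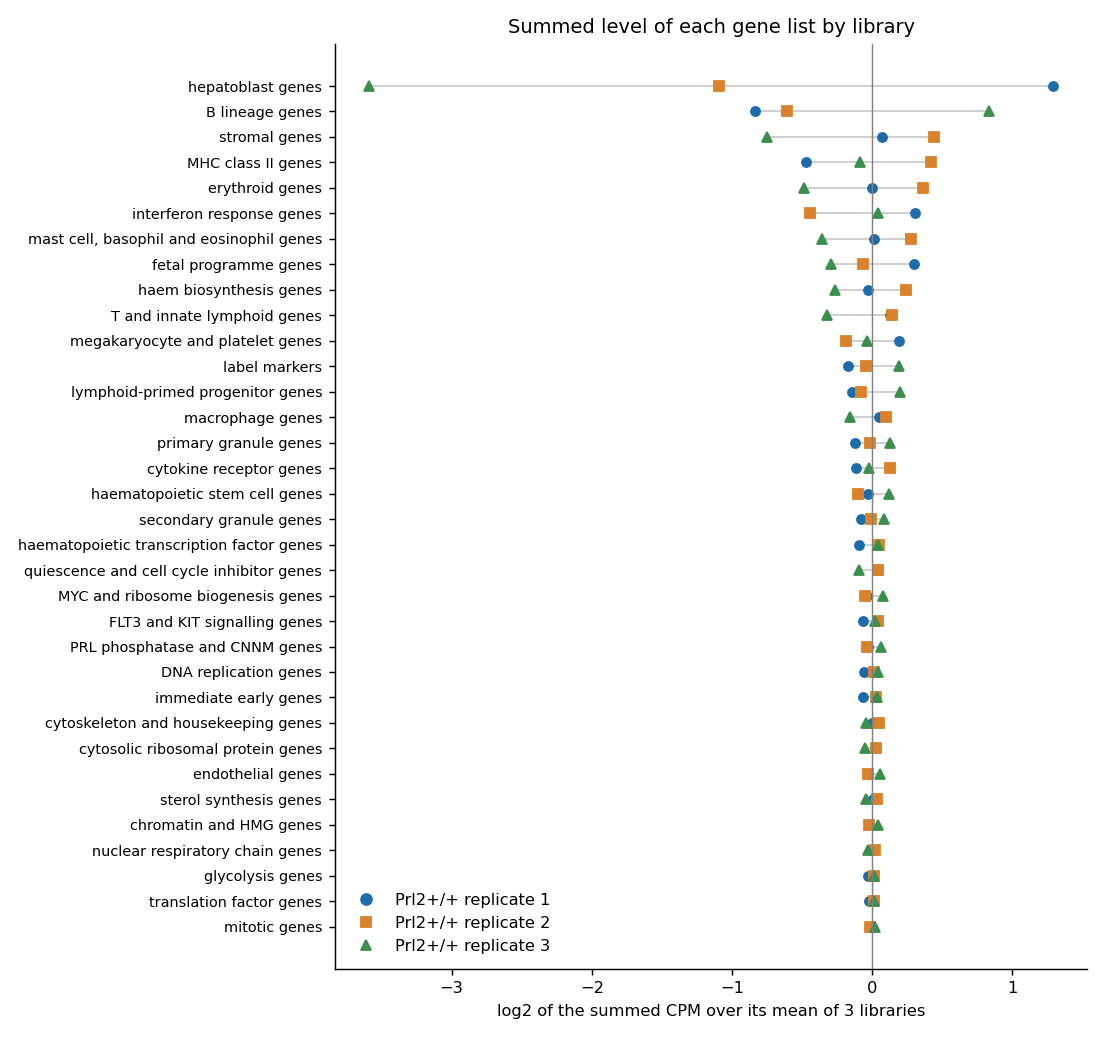
Log2 of the summed CPM of each of 34 gene lists in each Prl2+/+ library over the list's mean of the 3 libraries, ordered by range (the globin list, with 1 measured gene, is left out). Hepatoblast genes have the widest range, 29.5-fold, and mitotic genes the narrowest, 1.02-fold.

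Interferon response genes were highest in replicate 1 for 20 of 23 members and lowest in replicate 2 for 22 of 23. They summed to 2013, 1201 and 1675 CPM, a 1.68-fold range. Bst2, the gene of tetherin, stood at 144, 75.9 and 94.0 CPM, Irf7, the interferon-regulating factor gene, at 227, 123 and 207 CPM and Usp18, which removes the ubiquitin-like ISG15, at 169, 67.5 and 110.4 CPM. Isg15 stood at 64.5, 37.6 and 42.9 CPM and Ifit1, an RNA-binding antiviral gene, at 56.8, 28.1 and 46.6 CPM. The lowest member was Mx2 at 1.26, 0.892 and 1.31 CPM, and Ifi44 had the widest range, at 2.22, 0.506 and 2.70 CPM. This order of libraries was not that of the hepatoblast, erythroid or B lineage genes. The promoters of Isg15 (chr4:156200819-156201018, minus strand) and Ifit1 (chr19:34640689-34640888, plus strand) are shown because the letters of the interferon-stimulated response element recur in them, with capitals for GAAA, any 2 bases and GAAA, on either strand.
Isg15: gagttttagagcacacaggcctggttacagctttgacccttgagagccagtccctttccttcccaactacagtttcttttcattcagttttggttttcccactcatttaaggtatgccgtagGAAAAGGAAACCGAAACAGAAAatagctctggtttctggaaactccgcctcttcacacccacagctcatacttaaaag
Ifit1: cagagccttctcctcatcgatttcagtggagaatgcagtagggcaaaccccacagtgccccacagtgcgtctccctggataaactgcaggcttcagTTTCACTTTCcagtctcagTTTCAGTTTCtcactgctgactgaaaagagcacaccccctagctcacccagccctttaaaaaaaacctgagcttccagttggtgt
This motif was present in 7 of 18 windows of interferon response genes (38.9%), against 2.27% of all windows. It was also present in 2 of 12 windows of B lineage genes (16.7%), and in none of those of the other 9 lists.

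Immediate early genes, which respond within minutes to stimuli and to tissue handling, had close sums in the 3 libraries. The 16 genes summed to 1110.2, 1184 and 1187 CPM, while the median CV of single members was 12.7%, against 7.13% for all genes with a mean of at least 5 CPM. Ier2 stood at 155, 164 and 146 CPM, Zfp36 at 99.8, 119 and 131 CPM, Egr1 at 163, 190.2 and 179 CPM and Fos at 87.6, 117 and 144 CPM. Fosb, the lowest, stood at 0.536, 0.714 and 0.462 CPM, and Atf3, a stress factor gene, had the widest range at 40.2, 24.0 and 19.7 CPM.

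**Figure D5:**
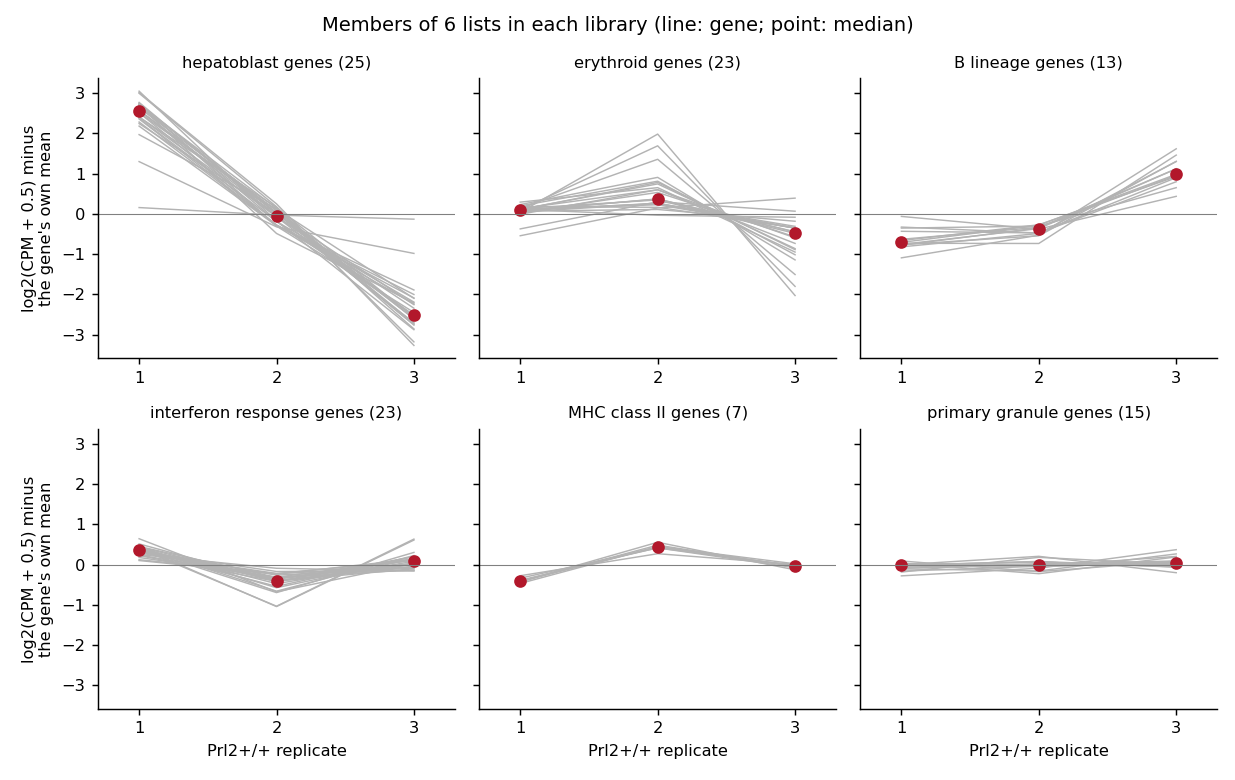
Log2(CPM + 0.5) of each member of 6 lists in the 3 Prl2+/+ libraries, minus the gene's own mean over the libraries; each line is a gene and each point the list median. Hepatoblast genes are highest in replicate 1 and lowest in replicate 3, B lineage genes are highest in replicate 3, MHC class II and erythroid genes in replicate 2, interferon response genes are lowest in replicate 2, and primary granule genes stay near 0.

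Of the 35 lists, 9 had summed levels that differed more than 1.5-fold between libraries and 15 differed less than 1.1-fold. Replicate 1 was the highest library for 5 lists, replicate 2 for 15 and replicate 3 for 15. In 23 of the 35 lists the median CV was above the 7.13% of genes with a mean of at least 5 CPM. The list medians also took in members under 5 CPM, and the median CV with no such minimum was 8.62%. Of the 286 genes over 50%, 48 were in a list, 22 of them hepatoblast genes, and 238 were in none, of which 193 were highest in replicate 1.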

How the data were processed

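Gene counts of the 3 Prl2+/+ libraries were used. The 3 Prl2-/- libraries were used only to see how the table had been filtered. The authors deposited raw counts per gene with exon positions and a gene length, per the file header. Per the submitters' processing notes, STAR was the aligner and featureCounts the counter, with versions and build not given in the sources used here. Every gene of the deposited table reached 0.231 CPM in at least 3 of the 6 libraries, so low genes had been left out. A gene may thus be in the table through its level in the Prl2-/- libraries. Mitochondrially encoded genes were not analysed here. Of 9650 symbols shared with RefSeq GRCm38.p6 promoters, 9563 had their start site within the gene, so positions are given on GRCm38.

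CPM used column totals, and CPKM divided it by the deposited length. No test was made, since 1 group gives no contrast. Dispersion came from edgeR 4.0.16 in R 4.3.3, and size factors for an alternative from DESeq2 1.42.0. The spread calculation was tested on simulated data. Counting errors and the floor of 3 counts cover counting error only, as reads carried no molecular identifiers. No pair of libraries agreed within sampling noise (chi-square per gene at least 25.0). The samples' replicate numbers name them only.

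The members and the gene lists were chosen with earlier results of these data known. The genes named are the label markers and Ptp4a2, the 20 highest by CPKM and by CPM, the 3 highest, the lowest and the widest-ranging member of a list, the 15 largest CVs at 5 CPM and the 10 smallest at 100 CPM. Other genes are named as examples chosen after their values were seen, and some that the rule takes are not reported here.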

Additional observations from a re-analysis of the deposited data

How the results depend on the processing

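Scaling by TMM or DESeq2 factors moved none of the results beyond its replicate spread, or a count by over 1.5 times. The count of 286 genes with a CV over 50% was 949 with no CPM minimum and 26 at a mean of at least 50 CPM. These settings test more and fewer genes. It was 264 without the listed hepatoblast genes, a drop fixed by the 22 of them among the 286. Plasma protein genes in no list, such as Gc and Hpx, stayed in that count, so it does not measure the part of hepatoblasts. Leaving out 1 library gave 144 to 353, and 144 was the value without replicate 1; pairs of libraries have other CVs than trios. The share of the 100 most abundant genes, 16.8%, was 23.2% with length-scaled levels, since short abundant transcripts then weigh more. Shared genes of the top 100 were 85 to 92 under every alternative run. The median CV of 7.13%, with alternatives chosen after the data were seen, was 5.88% to 6.01% with 1 library left out. The hepatoblast share of 0.231% was 0.0636% without replicate 1. The other recomputed values (14 summaries and 42 single genes or lists with 1 library left out, 12 and 33 under other settings) moved by less than the spread between replicates, or for counts by less than 1.5 times. Leaving out 1 of 3 libraries can never move their mean past that spread, so for means this check could not fail and shows no stability. No paired analysis was possible because only 1 group was used and no test was made. Depth limits the lowest genes, since a count of 0 allows up to 0.116 CPM in replicate 3.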

Other observations

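Further genes varied between libraries outside the lists, and all in this paragraph were chosen after their values were seen. Inflammatory chemokine genes were highest in replicate 1: Ccl2 stood at 61.1, 24.9 and 29.2 CPM, Ccl7 at 36.4, 10.1 and 19.8 CPM and Cxcl10 at 23.8, 5.30 and 5.78 CPM, while Ccl3 was level at 26.5, 24.7 and 28.5 CPM. Padi2, a peptidylarginine deiminase gene, stood at 82.7, 24.5 and 25.4 CPM. In replicate 2, Ctse (cathepsin E) stood at 11.2, 114 and 14.9 CPM and Tph1, which makes serotonin in mast and other cells, at 18.1, 54.2 and 13.4 CPM. In replicate 3, Spib, a B lineage and plasmacytoid dendritic cell factor gene, stood at 2.49, 3.36 and 20.1 CPM, Ly6d, a marker of lymphoid progenitors with B cell potential, at 2.79, 3.42 and 14.6 CPM, the lymphoid factor gene Lef1 at 9.41, 8.84 and 28.5 CPM and Mzb1, of the endoplasmic reticulum of B cells, at 8.95, 10.9 and 26.5 CPM.

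Dus2, a tRNA dihydrouridine synthase gene, had 276, 30 and 304 counts in replicates 1 to 3, low in replicate 2 alone. The stefin A gene Stfa2 stood at 81.1, 77.3 and 101 CPM, and the eosinophil ribonuclease gene Ear1 at 91.8, 121 and 67.7 CPM.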
